A study of Drosophila melanogaster with 33 samples.

Results

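The genes described here are a set of axon, synapse and neuronal genes, followed through every group of the study. They were chosen as a list of 42 gene symbols, with earlier results of these data known. Of these symbols 41 were among the 16727 in the deposited tables. The remaining one, robo2, was not found under that symbol; its older name lea is in the tables, and its values are given beside the members without being counted as one of them. By role the 41 members comprised 4 RNA-binding proteins, 10 proteins of synaptic release and excitability, 5 of the axonal cytoskeleton and transport, 12 of adhesion and cell-surface signalling, 8 of axon guidance and 2 of peptide processing. In all groups the members came from whole eye-antennal discs, so their RNA is the sum over clone cells and all other cells of the disc.

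The eye-antennal imaginal disc is the larval epithelium that forms the eye, antenna and part of the head of the fly. Neurons arise in its eye part when a morphogenetic furrow sweeps forward and photoreceptors are specified in rows behind it, after which they switch on neuronal RNA-binding proteins, lay down cell adhesion molecules and send axons towards the brain. Synaptic genes are switched on during this maturation, well before the axons form working synapses. Yorkie (Yki) is the transcriptional co-activator restrained by the Hippo pathway kinase Warts (Wts), and Scalloped (Sd) is the DNA-binding partner that brings Yki to its target genes in growing discs.

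Larvae were raised at 25°C and dissected at day 5 after egg laying, and a sample pooled at least 30 discs. In the eyFLP model, eyFLP wts- discs (2 libraries, ey-FLP with FRT82B wts149 over FRT82B cl-) carried clones of the wts149 allele made with the eye-expressed recombinase ey-FLP in a y w background, against a chromosome with a cell-lethal mutation. Their controls, eyFLP ctrl (3 libraries), had the plain FRT82B chromosome in place of the mutant one and the same cell-lethal chromosome. In the optix model, optix yki3SA discs (2 libraries, w/y v; optix-Gal4/+; UAS-yki3SA/+) expressed the activated Yki form yki3SA under optix-Gal4, which drives expression in a part of the disc. Their controls, optix ctrl (3 libraries), expressed a luciferase hairpin, UAS-lucRNAi, under the same driver. The MARCM model makes marked clones, here with UAS-GFP in every group. It had 6 yki3SA libraries (UAS-yki3SA), 5 yki3SA sd- libraries (UAS-yki3SA with the sd47M allele), 5 sd- libraries (sd47M) and 7 ctrl libraries. In sequencing run 1 all 4 MARCM groups used FRT19A with tub-Gal80 and the ey-FLP Act 5C<y+<Gal4 driver, with 5 yki3SA, 3 yki3SA sd-, 3 sd- and 5 ctrl libraries. In run 2 the single yki3SA and both ctrl libraries came from FRT42D with tub-Gal80, y w ey-FLP and tub-Gal4, while the 2 yki3SA sd- and 2 sd- libraries kept the FRT19A genotype. Run, chromosome arm and driver cannot be told apart for yki3SA and ctrl in run 2. Nothing in the labels says that samples of a group came from separate crosses, and p-values therefore speak only of the spread among these samples, which may be technical.

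Messenger RNA was counted from its 3' end, which gives about 1 tag per transcript, so counts were not divided by length. Levels are given as counts per 1000000 counts (CPM) after scaling the libraries with TMM factors, and comparisons as log2 fold changes ± standard error from edgeR's quasi-likelihood test with Benjamini-Hochberg adjusted p. A gene was called, and is said to have risen or fallen, at an adjusted p under 0.05. Libraries held 4874192 to 15273835 counts in run 1 and 17071389 to 19128356 in run 2. The 3' tags do not check the alleles. The wts mRNA was higher in eyFLP wts- than in eyFLP ctrl discs (249 against 170 CPM, log2 0.55 ± 0.14, edgeR adjusted p = 0.0062), and sd mRNA did not differ past the threshold between sd- and ctrl (log2 -0.27 ± 0.10, edgeR adjusted p = 1.00). The yki count was 52.5 ± 14.4 CPM in MARCM yki3SA (SD, n = 5), 5.89 ± 3.65 in yki3SA sd- (n = 3), 44.3 ± 37.3 in sd- (n = 3) and 36.7 ± 17.8 in ctrl (n = 5) in run 1. In run 2 it was 2082 CPM in the yki3SA library, 98.0 and 109 in yki3SA sd-, 63.3 and 64.3 in sd- and 63.7 and 66.2 in ctrl. In run 1 the libraries labelled yki3SA sd- therefore had no more yki tags than those labelled sd-; the sources used here do not say whether transcripts of the transgene carry the counted 3' end of yki.

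Most members were lower in all 3 models of Yki activation. Most RNA-binding, synaptic and adhesion members and all cytoskeletal and peptide-processing members fell in each model. Most tested axon guidance members lay close to their controls, and 3 synaptic members rose in MARCM yki3SA. In eyFLP wts- discs 32 of the 40 tested members fell and 1 rose, while over all 8693 genes tested 13.5% fell and 10.6% rose. In optix yki3SA discs 30 fell and 0 rose by edgeR and by DESeq2, with 33 at an unadjusted p under 0.05, while over all genes 10.5% fell and 9.02% rose. In MARCM yki3SA discs 29 fell and 4 rose, while over all 8927 genes tested 17.1% fell and 17.3% rose. The median log2 change of the tested members was -3.01 in the eyFLP, -2.54 in the optix and -2.04 in the MARCM model, beside medians over all genes of -0.01, 0.03 and 0.08. The axon guidance gene beat-Ia, which encodes an anti-adhesive secreted protein of motor axons, was under the expression filter in each model and was not tested. Its highest value in any library was 0.674 CPM.

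Of the members, 27 fell in all 3 models, whose libraries are separate, and 0 rose in all 3, while 6.49% of the 8484 genes tested in each model fell in all 3 and 2.82% rose. The 27 were elav, Rbp9, cpo, nSyb, Syt1, Rab3, brp, cac, para, Nrx-1, futsch, stai, tau, unc-104, Ank2, Appl, X11Lbeta, jeb, Nrt, klg, miple (now miple1), SP2353, CadN, chp, robo3, 7B2 and amon. Among the guidance members unc-5, Sema-2a (now Sema2a) and PlexA were called in none of the 3. For each of the 32, 30 and 29 members that fell, every activated library lay below every control library of its model (for MARCM within run 1, and again within run 2). Over all genes tested such separation held for 29.1%, 18.2% and 16% in the eyFLP, optix and MARCM models, and over all genes that fell for 99.9%, 97.8% and 81.3%, so that it nearly comes with the call. Among members that fell, 24 were at least 4-fold lower in eyFLP wts-, 23 in optix yki3SA and 20 in MARCM yki3SA, while 7.44%, 4.34% and 7.87% of all genes tested fell by as much. The optix calls of Rbp9, unc-13, CadN, Fas2 and PlexB were lost when that model was fitted alone (edgeR adjusted p = 0.0574 to 0.191). Because whole discs were measured, fewer neurons and less RNA per neuron cannot be told apart for these changes.

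**Figure D1:**
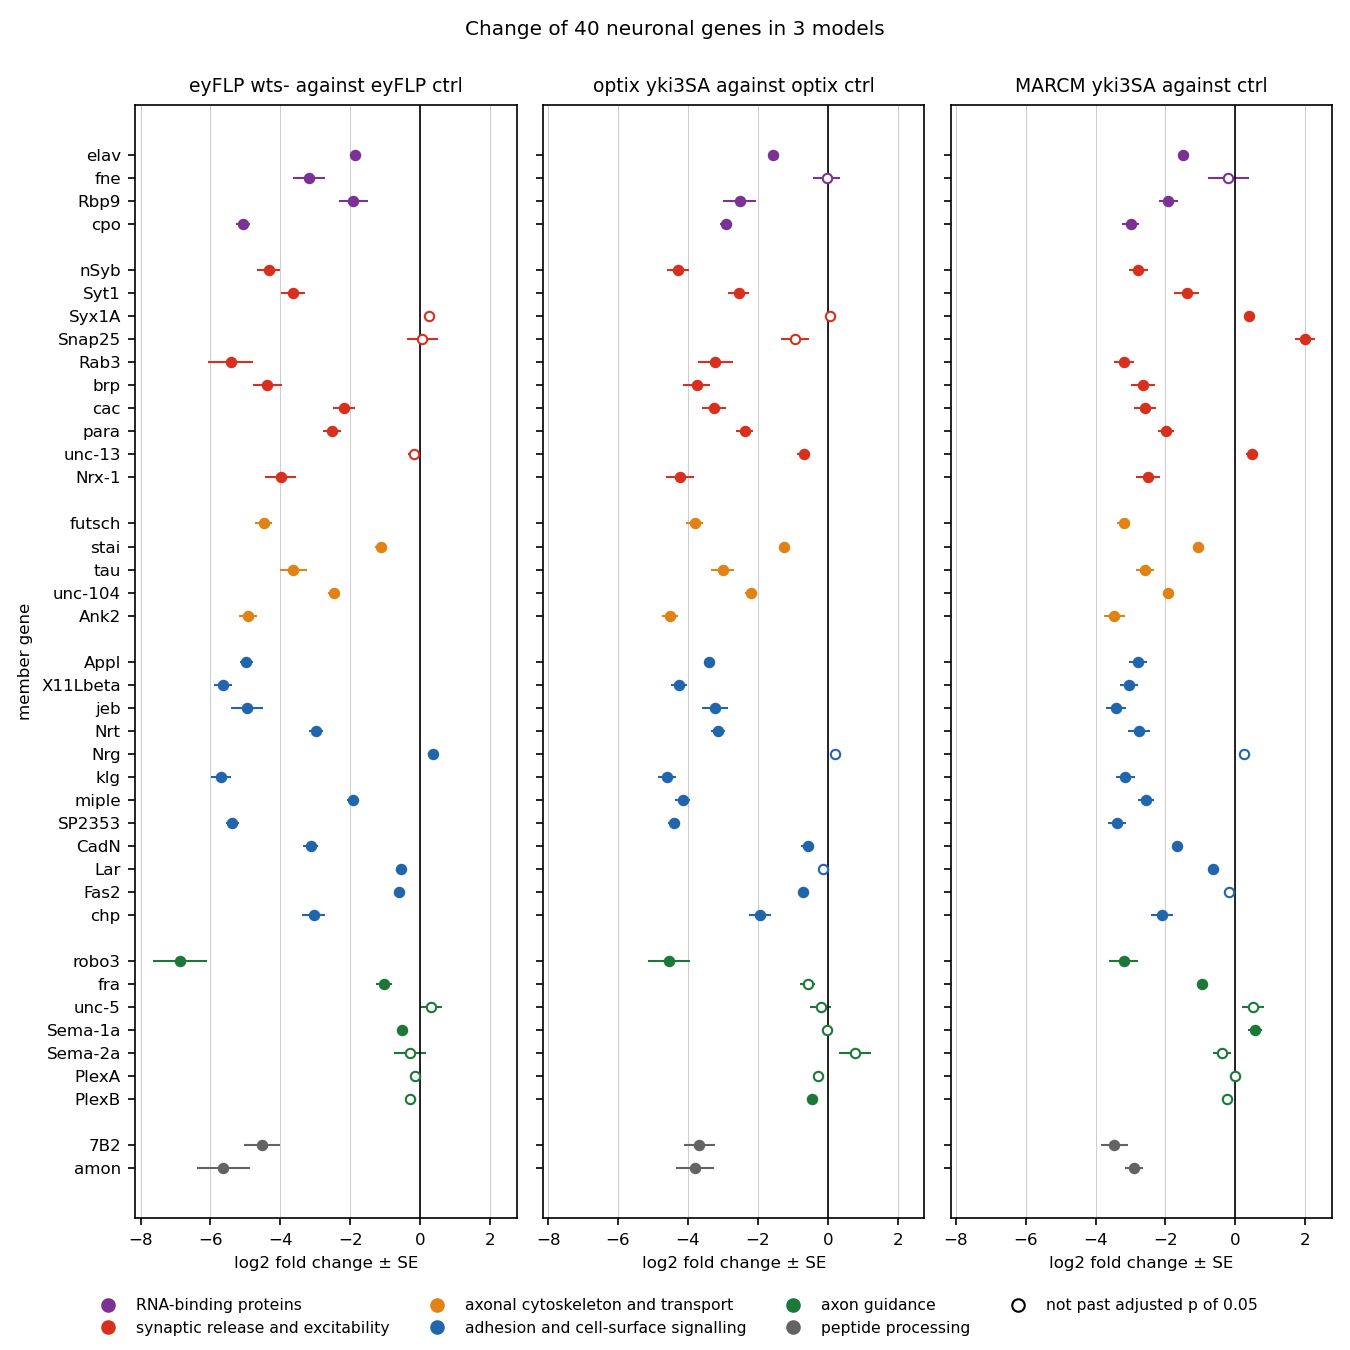
Log2 fold change of the 40 tested members in the eyFLP (wts- over ctrl), optix (yki3SA over ctrl) and MARCM (yki3SA over ctrl) models, ordered by role; points are fitted changes, bars their standard errors and filled points pass the adjusted p of 0.05. Most members lie left of 0 in all 3 models, with medians of -3.01, -2.54 and -2.04, and most axon guidance members lie near 0.

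The RNA-binding members included elav, the pan-neuronal splicing regulator that marks postmitotic neurons, at chromosome X 509235 to 523226 in the BDGP6 annotation (the dm6 assembly). It had 103.8 and 124 CPM in eyFLP wts- discs, against 409, 398 and 442 CPM in eyFLP ctrl discs. In optix yki3SA it had 146 and 139 CPM, against 385, 443 and 441 CPM in optix ctrl. Within MARCM run 1 its lowest, median and highest values were 131, 135 and 146 CPM in yki3SA and 366, 391 and 422 CPM in ctrl. The activated libraries of all 3 models were the low ones and did not overlap their controls. The elav changes were log2 -1.87 ± 0.11, -1.57 ± 0.11 and -1.51 ± 0.11 (edgeR adjusted p = 3.36e-11, 8.70e-10 and 1.92e-10). A further gene, arg, shares exonic bases with elav on the opposite strand, and since the strand setting of the counting is not given, reads of such neighbours cannot be separated.

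The gene cpo (chromosome 3R, 17919832 to 18018892), which encodes a nuclear RNA-binding protein of the peripheral nervous system, had the highest mean level of this group in run 1, 376 CPM over its libraries. It had 16.4 and 17.0 CPM in eyFLP wts-, against 559, 507 and 618 CPM in eyFLP ctrl. The optix yki3SA libraries had 71.2 and 69.3 CPM, against 449.8, 539 and 609 CPM in optix ctrl. Run 1 MARCM values ran from 52.8 over a median of 68.8 to 87.3 CPM in yki3SA, against 490.4, 527 and 573 CPM in ctrl. All activated libraries were far below their controls, and the eyFLP wts- pair was the lowest of run 1. The changes were log2 -5.08 ± 0.20, -2.92 ± 0.17 and -2.998 ± 0.25 (edgeR adjusted p = 3.06e-14, 4.79e-11 and 2.02e-09).

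The other RNA-binding members were elav relatives at much lower levels. Rbp9, an elav family member of neurons and of the ovary, fell in the eyFLP, optix and MARCM models (log2 -1.91, -2.52 and -1.92) and had 2.69 to 5.91 CPM in the run 1 controls, and its eyFLP call was lost without eyFLP wts- replicate 1 (-1.55, edgeR adjusted p = 0.0546). The gene fne, a cytoplasmic elav relative of neurons, did not move alike in the models. It had 0.988 and 1.38 CPM in eyFLP wts- and 9.60, 11.2 and 11.4 CPM in eyFLP ctrl, a change of log2 -3.18 ± 0.46 (edgeR adjusted p = 1.21e-05). In optix discs it had 6.72 and 3.08 CPM in yki3SA and 3.38, 3.85 and 7.32 CPM in ctrl. For MARCM, run 1 values ran from 7.29 to 18.4 CPM in yki3SA and from 12.4 to 15.4 CPM in ctrl, so the groups overlapped in both of these models and neither change passed the test (log2 -0.02 ± 0.39 and -0.20 ± 0.60). In run 2 fne had a single count, 0.0412 CPM, in yki3SA against 8.02 and 2.06 CPM in ctrl.

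Synaptic members that fell encode parts of the vesicle release machinery, the active zone and its channels. The gene nSyb (chromosome 3L, 1630348 to 1637752) encodes neuronal synaptobrevin, the vesicle SNARE of neurotransmitter release. It had 1.76 and 1.84 CPM in eyFLP wts-, against 28.2, 37.0 and 44.1 CPM in eyFLP ctrl. Optix yki3SA discs gave 3.09 and 2.29 CPM, against 34.9, 65.0 and 55.1 CPM in optix ctrl. In MARCM run 1 it had 4.83, 7.13 and 8.75 CPM in yki3SA and 32.4, 43.1 and 44.2 CPM in ctrl (lowest, median and highest, as for the MARCM run 1 values of the genes that follow). No activated library reached a control level in any model. The changes were log2 -4.34 ± 0.33, -4.27 ± 0.31 and -2.78 ± 0.27 (edgeR adjusted p = 8.53e-10, 1.34e-09 and 3.04e-08).

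Rab3, a small GTPase of synaptic vesicles, had the largest synaptic fall in the eyFLP and MARCM models. It had 2 counts over both eyFLP wts- libraries and 132 over the eyFLP ctrl libraries, which after scaling is 47.5 times lower (95% counting interval 12.9 to 396). Within MARCM run 1 its values were 0.190, 0.597 and 1.09 CPM in yki3SA against 4.27, 6.12 and 6.62 CPM in ctrl, without overlap, a change of log2 -3.20 ± 0.28 (edgeR adjusted p = 6.34e-09). In the optix model the change was -3.21 ± 0.51. The active zone scaffold brp, the presynaptic calcium channel gene cac, the sodium channel gene para, the vesicle calcium sensor gene Syt1 and the synaptic adhesion gene Nrx-1 also fell in each model. Their falls spanned log2 -4.37 (brp) to -2.19 (cac) in eyFLP wts-, -4.23 (Nrx-1) to -2.38 (para) in optix yki3SA and -2.65 (brp) to -1.39 (Syt1) in MARCM yki3SA.

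Of the synaptic members, 7 fell in all 3 models and Syx1A, Snap25 and unc-13 did not, although unc-13 fell in the optix model. Syx1A encodes the plasma membrane SNARE syntaxin, which acts in secretion by many cell types and shares 447 exonic bases on its own strand with eIF4EHP at its 3' end. It had 227 and 256 CPM in eyFLP wts- against 186, 190.5 and 228 CPM in eyFLP ctrl, and 304 and 243 CPM in optix yki3SA against 278, 247 and 259.9 CPM in optix ctrl, with overlap in both. Its MARCM run 1 values were 242, 265 and 319 CPM in yki3SA and 191, 206 and 224 CPM in ctrl (lowest, median and highest), with no overlap. It rose in MARCM yki3SA by log2 0.38 ± 0.10 (edgeR adjusted p = 0.00369), with 0.42 in run 1 alone and -0.04 in run 2 alone.

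Snap25, the partner SNARE of syntaxin, was low in controls. It had 2.99, 4.37 and 5.37 CPM in MARCM yki3SA run 1 and 0.542, 0.957 and 1.32 CPM in ctrl, and 6.05 CPM against 2.16 and 2.32 CPM in run 2. All yki3SA libraries were above all ctrl libraries of their run, and the rise was log2 1.99 ± 0.28 (edgeR adjusted p = 4.32e-06). It had 1.10 and 1.72 CPM in eyFLP wts- against 1.84, 1.13 and 1.08 CPM in eyFLP ctrl, with overlap, and 1.34 and 2.68 CPM in optix yki3SA against 4.25, 4.02 and 3.45 CPM in optix ctrl, without overlap. Neither of those changes passed the test (log2 0.06 ± 0.44 and -0.93 ± 0.40).

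The vesicle priming gene unc-13 (chromosome 4, 867824 to 912331) was second to Syx1A among the synaptic members in run 1 (means of 232 and 240 CPM over its libraries) and first in run 2. It had 161 and 133 CPM in eyFLP wts- against 165, 159.5 and 171 CPM in eyFLP ctrl, and 218 and 139.8 CPM in optix yki3SA against 257, 341 and 269 CPM in optix ctrl. MARCM run 1 gave 224, 267 and 324 CPM in yki3SA and 158, 182 and 217 CPM in ctrl. It overlapped its controls in the eyFLP model, and was lower than control in every optix yki3SA library and higher in every run 1 MARCM yki3SA library, with calls of log2 -0.69 ± 0.19 and 0.47 ± 0.16 (edgeR adjusted p = 0.0133 and 0.0251). The optix call was lost without optix ctrl replicate 2 (-0.56, edgeR adjusted p = 0.0628) or without optix yki3SA replicate 2 (-0.38, edgeR adjusted p = 0.295). The MARCM call was lost without yki3SA replicate 1 or ctrl replicate 4 or 5 (0.40 to 0.44, edgeR adjusted p = 0.0547 to 0.0725). It was also lost with DESeq2-type or upper-quartile scaling, with no filter and at a mean of at least 10 CPM (0.37 to 0.43, edgeR adjusted p = 0.0526 to 0.0858), and run 2 alone gave -0.20 (edgeR adjusted p = 0.0354). An antisense RNA, asRNA:CR43425, covers its 3' end on the opposite strand.

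All 5 members of the axonal cytoskeleton and transport fell in every model, with group medians of log2 -3.63, -3.01 and -2.59. The gene futsch (chromosome X, 1409069 to 1453686) encodes a microtubule-associated protein of axons and the antigen of the neuronal antibody 22C10. It had 6.80 and 12.2 CPM in eyFLP wts-, against 237, 192 and 204 CPM in eyFLP ctrl. In optix yki3SA it had 32.2 and 18.7 CPM, against 376, 369 and 321 CPM in optix ctrl. The MARCM libraries of run 1 had 15.7, 22.1 and 25.6 CPM in yki3SA against 177, 184 and 208 CPM in ctrl. The libraries fell into separate ranges in each model, and the changes were log2 -4.48 ± 0.26, -3.81 ± 0.24 and -3.19 ± 0.19 (edgeR adjusted p = 2.23e-11, 2.41e-10 and 9.59e-12). The annotation places 1186 exonic bases of Gr2a on the same strand at the 3' end of futsch.

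The most abundant member of the whole set in run 1, stai, encodes stathmin, a regulator of microtubule turnover, and moved much less. It had 804 and 759.9 CPM in eyFLP wts-, against 1710, 1647 and 1765 CPM in eyFLP ctrl. The optix yki3SA libraries had 1060 and 787 CPM, against 1940, 2582 and 2051 CPM in optix ctrl. In MARCM run 1 it had 706, 853 and 957 CPM in yki3SA, against 1689, 1984 and 2140 CPM in ctrl. Groups did not overlap, and the changes were log2 -1.13 ± 0.16, -1.24 ± 0.16 and -1.06 ± 0.16 (edgeR adjusted p = 8.48e-06, 4.99e-06 and 1.06e-05).

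Ank2, an ankyrin that stabilises axons and nerve terminals, had the largest cytoskeletal fall. It had 3.29 and 3.79 CPM in eyFLP wts-, against 118, 96.8 and 108 CPM in eyFLP ctrl. Optix yki3SA discs gave 13.3 and 8.15 CPM, against 209, 287 and 231 CPM in optix ctrl. Its MARCM run 1 values were 8.77, 12.1 and 16.4 CPM in yki3SA, against 98.8, 106 and 121 CPM in ctrl. No library of an activated group came near its controls, and the changes were log2 -4.92 ± 0.25, -4.51 ± 0.23 and -3.46 ± 0.30 (edgeR adjusted p = 3.27e-12, 7.09e-12 and 4.18e-09). The microtubule-binding gene tau (log2 -3.63, -3.01 and -2.59) and the synaptic vesicle kinesin gene unc-104 (-2.46, -2.21 and -1.92) fell in the eyFLP, optix and MARCM models too.

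**Figure D2:**
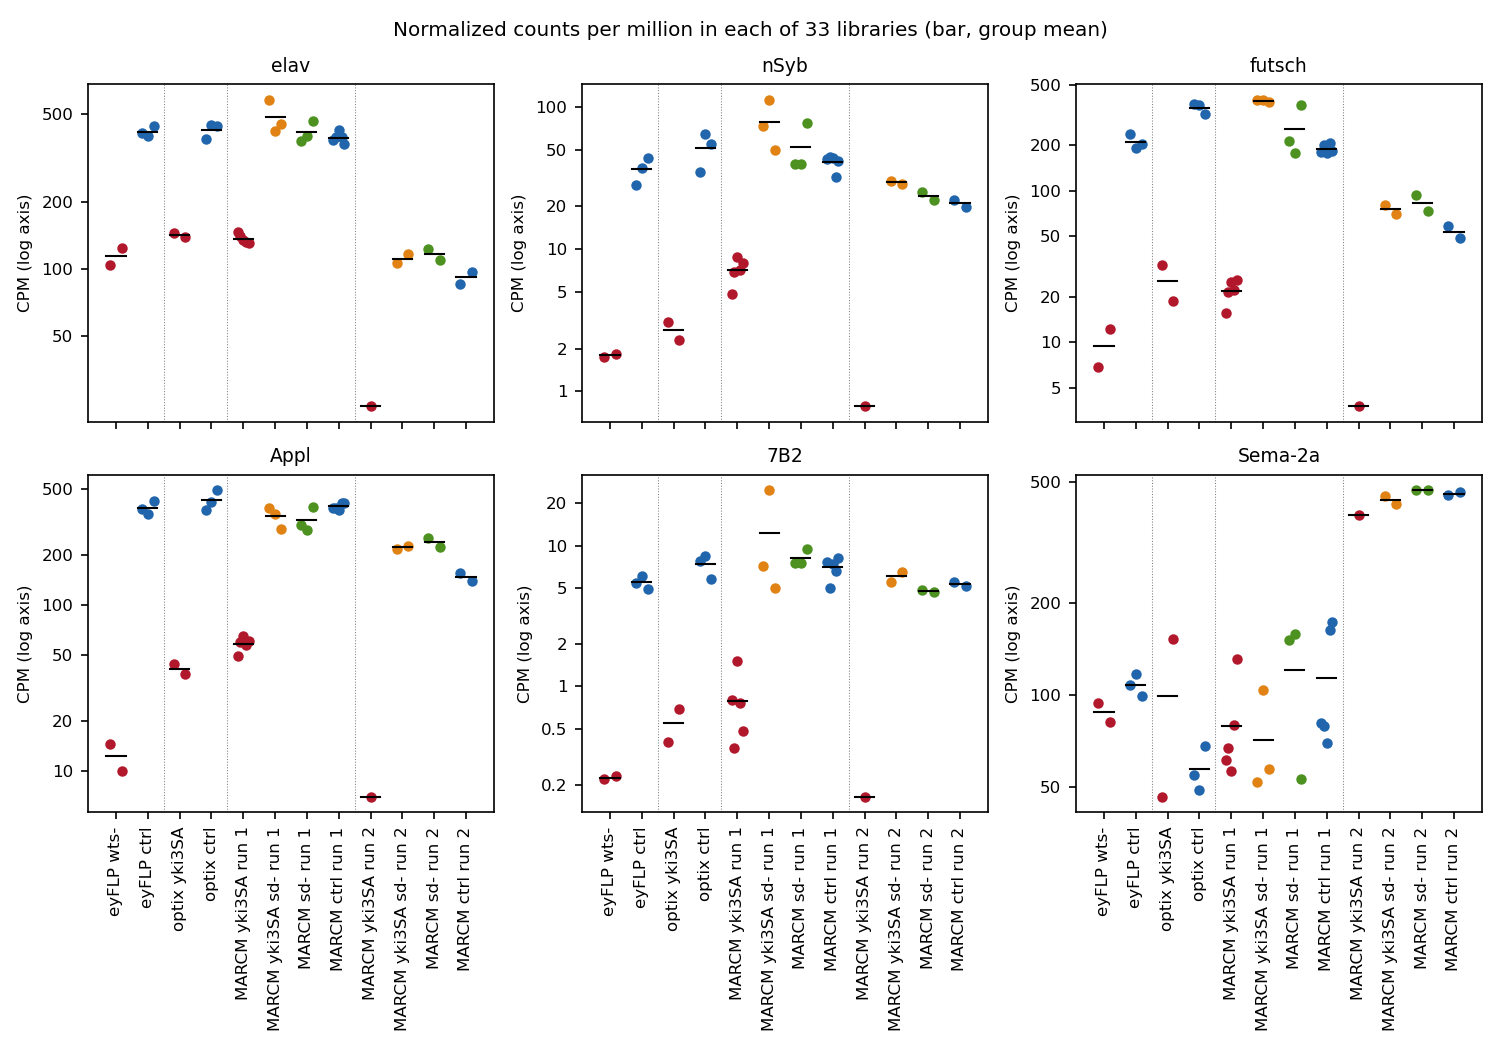
Scaled CPM (log axis) of elav, nSyb, futsch, Appl, 7B2 and Sema-2a in each of the 33 libraries by group, one point per library and a bar at each group mean, with run 2 shown apart. The first 5 genes are lower in eyFLP wts-, optix yki3SA and MARCM yki3SA than in their controls, while Sema-2a overlaps its controls in optix and MARCM run 1 and is higher in run 2 in all groups.

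Adhesion and cell-surface members included some of the largest falls of the set and a few genes with small changes. Appl (chromosome X, 530501 to 579044) encodes the fly relative of the amyloid precursor protein. It had 14.5 and 9.98 CPM in eyFLP wts-, against 379, 352 and 421 CPM in eyFLP ctrl. In optix yki3SA it had 43.7 and 38.4 CPM, against 374, 416 and 494 CPM in optix ctrl. MARCM run 1 gave 49.3, 59.4 and 64.7 CPM in yki3SA, against 372, 386 and 411 CPM in ctrl. All activated libraries were below all controls, and the changes were log2 -4.97 ± 0.18, -3.39 ± 0.16 and -2.80 ± 0.26 (edgeR adjusted p = 2.25e-14, 2.64e-12 and 1.07e-08).

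The gene klg, an immunoglobulin-domain adhesion gene of photoreceptors, had the largest fall of this group in the eyFLP and optix models. It had 0.549 and 1.03 CPM in eyFLP wts-, against 39.1, 39.3 and 46.1 CPM in eyFLP ctrl. The optix yki3SA libraries had 2.02 and 2.29 CPM, against 48.9, 54.0 and 54.8 CPM in optix ctrl. Both groups were far apart in each model, with changes of log2 -5.70 ± 0.29 and -4.60 ± 0.26 (edgeR adjusted p = 3.27e-12 and 2.24e-11). In MARCM yki3SA the corresponding change was -3.15 ± 0.27.

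In the MARCM model the largest fall of the adhesion group was that of jeb, the secreted ligand of the Alk receptor that photoreceptor axons deliver to the brain. It had 4.01, 8.01 and 9.89 CPM in yki3SA run 1, against 63.5, 79.8 and 82.8 CPM in ctrl. In run 2 it had 0.165 CPM in yki3SA, against 11.1 and 13.1 CPM in ctrl. The groups were apart in both runs, with a change of log2 -3.42 ± 0.29 (edgeR adjusted p = 2.96e-09). In eyFLP wts- and optix yki3SA the changes were -4.95 ± 0.46 and -3.23 ± 0.38.

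X11Lbeta, which encodes an adaptor protein of the X11 family, fell in the eyFLP, optix and MARCM models (log2 -5.63, -4.26 and -3.05), as did SP2353, a laminin-G domain gene (-5.38, -4.40 and -3.39). Nrt, the transmembrane adhesion protein neurotactin, changed by log2 -2.97, -3.13 and -2.75. The photoreceptor surface gene chp, which encodes chaoptin, changed by log2 -3.05, -1.94 and -2.10. These members had no overlap with their controls in any model.

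Nrg, neuroglian, an adhesion protein of neurons and of epithelial septate junctions, was the member that rose in eyFLP wts- discs. It had 1241 and 1277 CPM in eyFLP wts-, against 1013, 909.7 and 1016 CPM in eyFLP ctrl, with no overlap. The rise was log2 0.36 ± 0.13 (edgeR adjusted p = 0.0431) and was lost without either eyFLP wts- library or without eyFLP ctrl replicate 1 or 2 (0.31 to 0.40, edgeR adjusted p = 0.0692 to 0.196). It was also lost with no filter, at a mean of at least 10 CPM and with the replicate number as a block (0.34 to 0.39, edgeR adjusted p = 0.0560 to 0.0990). In the optix and MARCM models its changes did not pass the test (0.20 ± 0.13 and 0.26 ± 0.13).

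Fas2, fasciclin 2, an adhesion protein of axons and of disc epithelia, had the highest mean of the adhesion group in run 1, 1114 CPM over its libraries. It had 712 and 609 CPM in eyFLP wts-, against 961, 988 and 1062 CPM in eyFLP ctrl, and 829.3 and 632 CPM in optix yki3SA, against 999.6, 1480 and 1121 CPM in optix ctrl. Neither pair of groups overlapped, and Fas2 fell in both (log2 -0.61 ± 0.15 and -0.71 ± 0.15, edgeR adjusted p = 0.00412 and 0.00161). Those calls were lost without eyFLP wts- replicate 2 (-0.49, edgeR adjusted p = 0.0885) and without optix yki3SA replicate 2 (-0.51, edgeR adjusted p = 0.0733). The MARCM libraries of run 1 had 893, 933 and 1143 CPM in yki3SA against 1031, 1115 and 1139 CPM in ctrl, ranges that overlapped, and the change of -0.18 ± 0.16 did not pass. The receptor phosphatase gene Lar, which guides photoreceptor axons to their targets, fell in eyFLP wts- (log2 -0.54) and in MARCM yki3SA (-0.63), and its change in optix yki3SA was -0.13 ± 0.15. Its eyFLP call was lost without eyFLP wts- replicate 1 or 2 or eyFLP ctrl replicate 3 (-0.55 to -0.48, edgeR adjusted p = 0.0570 to 0.111).

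Of the 7 tested axon guidance members, 3 fell in eyFLP wts-, 2 in optix yki3SA and 2 in MARCM yki3SA, where 1 rose. Their median log2 changes were -0.30, -0.26 and -0.24, against -3.07, -2.88 and -2.23 for the synaptic members and -2.54, -2.05 and -1.72 for the RNA-binding members. The RNA-binding medians rest on 4 chosen members, and those of 19 other RNA-binding genes, counted below, were -0.28, -0.31 and -0.06. The guidance group was uneven, with a receptor that was close to 0 in activated discs and several genes whose changes did not pass.

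That receptor was robo3 (chromosome 2L, 1256417 to 1296596), a receptor for the repellent Slit that sets the lateral position of axons. It had 0 and 0.115 CPM in eyFLP wts-, against 7.89, 7.11 and 9.39 CPM in eyFLP ctrl, or 1 count against 201. Scaled, this was 145 times lower, with a wide 95% counting interval of 25.7 to 5744. Optix yki3SA discs gave 0 and 0.596 CPM, against 7.53, 7.55 and 9.05 CPM in optix ctrl (log2 -4.54 ± 0.60, edgeR adjusted p = 7.91e-06). In MARCM run 1 it had 0.380, 0.626 and 1.38 CPM in yki3SA, against 3.25, 5.36 and 6.84 CPM in ctrl (log2 -3.19 ± 0.41, edgeR adjusted p = 1.67e-06). In all 3 models no activated library overlapped the controls.

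The netrin receptor gene fra (frazzled) fell in eyFLP wts- and in MARCM yki3SA (log2 -1.03 ± 0.23 and -0.94 ± 0.15, edgeR adjusted p = 0.00183 and 1.97e-05), and its optix change of -0.58 ± 0.22 did not pass (edgeR adjusted p = 0.0760). The eyFLP call was lost without eyFLP wts- replicate 2 (-0.85, edgeR adjusted p = 0.0631). PlexB, a semaphorin receptor gene, fell in optix yki3SA (log2 -0.46 ± 0.13, edgeR adjusted p = 0.0160), a call lost without either optix yki3SA library (-0.46 and -0.44, edgeR adjusted p = 0.0548 and 0.124) and with the replicate number as a block (-0.43, edgeR adjusted p = 0.0693).

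Sema-1a (now Sema1a), a transmembrane semaphorin, moved in opposite directions. It had 74.8 and 79.4 CPM in eyFLP wts-, against 116, 99.0 and 114 CPM in eyFLP ctrl, without overlap. Its MARCM run 1 values were 122.5, 128 and 129 CPM in yki3SA against 97.7, 105 and 121.8 CPM in ctrl, and in run 2 74.0 CPM in yki3SA against 27.1 and 27.1 CPM in ctrl, so the yki3SA libraries were just above ctrl in run 1 and well above it in run 2. The fall in eyFLP wts- was log2 -0.51 ± 0.15 (edgeR adjusted p = 0.0123), lost without eyFLP wts- replicate 1 or 2 or eyFLP ctrl replicate 3 (-0.55 to -0.42, edgeR adjusted p = 0.0629 to 0.142). The rise in MARCM yki3SA was log2 0.56 ± 0.20 (edgeR adjusted p = 0.0322). It was not called with the replicate number as a block (0.54, edgeR adjusted p = 0.0772), in run 1 alone (0.25, edgeR adjusted p = 0.242), or without yki3SA replicate 6 or ctrl replicate 6 or 7 (0.45 to 0.47, edgeR adjusted p = 0.0759 to 0.117), which are the run 2 libraries. The call also ended under upper-quartile scaling, when low counts were kept, or when only genes averaging 10 CPM or more were tested (0.45 to 0.50, edgeR adjusted p = 0.0708 to 0.0984).

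The guidance members that did not pass included PlexA, the most abundant of them in run 1, the receptor of Sema-1a. It had 280.5 and 288 CPM in eyFLP wts-, against 340.3, 282 and 324 CPM in eyFLP ctrl. Its optix values were 431 and 366 CPM in yki3SA, against 453, 545 and 441 CPM in ctrl. MARCM run 1 gave 300.0, 304 and 338 CPM in yki3SA, against 283, 324 and 342 CPM in ctrl. The groups overlapped in the eyFLP and MARCM models and were adjacent in the optix model, and none of its 3 changes passed the test (log2 -0.15 ± 0.11, -0.26 ± 0.11 and -0.02 ± 0.14). The secreted semaphorin gene Sema-2a and the netrin receptor gene unc-5 had changes of -0.38 to 0.79 and -0.20 to 0.51, with standard errors up to 0.46, and none passed. The older-named lea (now robo2), another Slit receptor, rose in eyFLP wts- (log2 0.93 ± 0.23, edgeR adjusted p = 0.00389) and in MARCM yki3SA (1.10 ± 0.20, edgeR adjusted p = 0.000171), with 0.26 ± 0.23 in optix yki3SA.

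Both peptide-processing members were at low levels and fell in every model. The gene 7B2 encodes the chaperone that the prohormone convertase encoded by amon needs for its maturation. 7B2 had 0.219 and 0.229 CPM in eyFLP wts-, against 5.39, 6.10 and 4.94 CPM in eyFLP ctrl. In optix yki3SA it had 0.403 and 0.695 CPM, against 7.82, 8.51 and 5.82 CPM in optix ctrl. The MARCM libraries of run 1 had 0.364, 0.767 and 1.52 CPM in yki3SA, against 5.02, 7.44 and 8.23 CPM in ctrl. No activated library reached its controls, and the changes were log2 -4.53 ± 0.52, -3.67 ± 0.44 and -3.47 ± 0.38 (edgeR adjusted p = 4.94e-07, 2.30e-06 and 1.74e-07). With 2 counts in each eyFLP wts- library, the first of these is imprecise.

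The convertase gene amon had the higher mean of the pair in each run, 6.99 CPM over the run 1 libraries and 9.23 CPM over those of run 2. It had 2 counts over both eyFLP wts- libraries and 153 over the eyFLP ctrl libraries, 55.1 times lower after scaling (95% counting interval 15.0 to 459). The optix yki3SA libraries had 1.61 and 0.298 CPM, against 8.40, 16.1 and 13.7 CPM in optix ctrl. In MARCM run 1 it had 0.537, 1.46 and 1.91 CPM in yki3SA, against 7.61, 8.71 and 11.3 CPM in ctrl. Again every activated library was below every control, with optix and MARCM changes of log2 -3.81 ± 0.54 and -2.89 ± 0.26 (edgeR adjusted p = 1.97e-05 and 5.75e-09).

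The eyFLP and optix models were compared directly by testing the difference of their changes, which asks where loss of wts and expression of yki3SA under optix-Gal4 differ. In this test 6 members were lower and 1 higher, while over all genes 4.83% were lower and 3.36% higher. The median difference over members was -0.43 on the log2 scale, beside -0.06 over all genes. The RNA-binding genes fne and cpo differed by -3.15 ± 0.60 and -2.15 ± 0.23 (edgeR adjusted p = 0.00138 and 1.37e-06), as cpo fell further in eyFLP wts- and fne fell there and had no called change in optix yki3SA. The adhesion genes CadN, Appl, X11Lbeta and SP2353 differed by -2.56 ± 0.26, -1.59 ± 0.21, -1.37 ± 0.31 and -0.98 ± 0.23 (edgeR adjusted p = 9.69e-07, 2.89e-05, 0.00612 and 0.00949). The SP2353 difference was lost without either eyFLP wts- library (-0.98 and -0.97, edgeR adjusted p = 0.0535 and 0.0551). All 7 were RNA-binding or adhesion members. The synaptic, cytoskeletal, guidance and peptide-processing members did not pass edgeR's test of the difference, though 5 of them had an unadjusted p under 0.05, and DESeq2 called 8 members in all.

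CadN, N-cadherin, which holds photoreceptor axons to their targets, showed the difference in its levels. It had 24.0 and 15.8 CPM in eyFLP wts-, against 179, 145 and 199 CPM in eyFLP ctrl. Optix yki3SA discs gave 142 and 102 CPM, against 152, 185 and 205 CPM in optix ctrl. The eyFLP groups were widely apart and the optix groups close to each other, with changes of log2 -3.13 ± 0.21 and -0.57 ± 0.18 (edgeR adjusted p = 1.30e-10 and 0.0305). The optix call was lost without optix yki3SA replicate 2 (-0.33, edgeR adjusted p = 0.416) or optix ctrl replicate 2 or 3 (-0.56 and -0.46, edgeR adjusted p = 0.0644 and 0.0871). It was also lost with the replicate number as a block (-0.47, edgeR adjusted p = 0.0717) and with the optix model fitted alone (-0.58, edgeR adjusted p = 0.179).

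The opposite difference was that of miple, a secreted midkine and pleiotrophin relative of neural tissue. It had 31.2 and 26.6 CPM in eyFLP wts-, against 107, 118 and 105 CPM in eyFLP ctrl. In optix yki3SA it had 2.69 and 2.58 CPM, against 38.9, 53.2 and 49.0 CPM in optix ctrl. It was below control in both models but fell further under optix-Gal4, with changes of log2 -1.93 ± 0.16 and -4.15 ± 0.21 and a difference of 2.22 ± 0.26 (edgeR adjusted p = 4.80e-06). Its level in optix ctrl was itself below that in eyFLP ctrl.

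**Figure D3:**
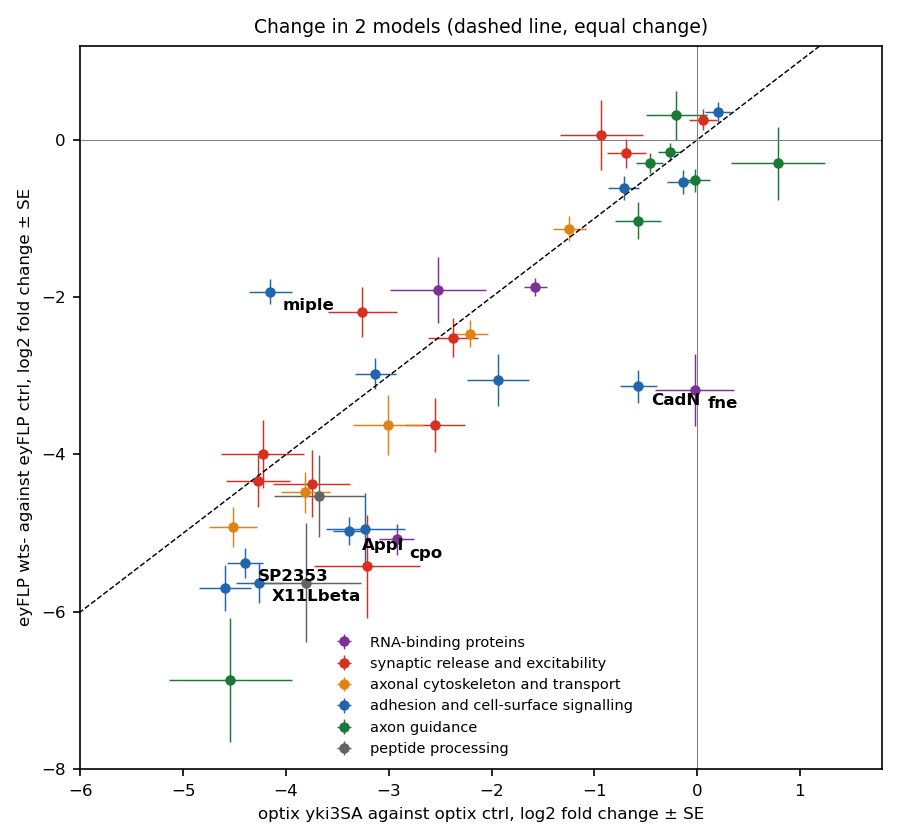
Log2 fold change in the eyFLP model (wts- over ctrl) beside that in the optix model (yki3SA over ctrl) for the 40 tested members, with the diagonal of equal change and the 7 members whose difference was called named. The changes of CadN, fne, cpo, Appl, X11Lbeta and SP2353 were lower in the eyFLP model and that of miple in the optix model; fne had no called change in the optix model.

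The MARCM groups compare the yki3SA changes with and without the sd mutation. The yki tags themselves were lower in yki3SA sd- than in yki3SA (log2 -3.29 ± 0.81, edgeR adjusted p = 0.0021). For yki the interaction was -3.34 ± 1.04 (edgeR adjusted p = 0.0197). The part of this difference in the members' changes was not tested. With sd lost and no yki3SA, 0 of the 40 members were called in sd- against ctrl by edgeR, with 6 at an unadjusted p under 0.05 and 0 by DESeq2, while over all genes 0.0784% rose and 0.0224% fell. The median member change was 0.19 on the log2 scale, beside 0.00 over all genes. The 6 members at an unadjusted p under 0.05 were futsch, Ank2, CadN, para, unc-13 and PlexB, with changes of 0.24 to 0.65. In yki3SA sd- against sd-, 0 of 40 were called by edgeR, with 3 at an unadjusted p under 0.05 and 1 called by DESeq2, while over all genes 0.0336% rose and 0.101% fell. The median member change there was 0.24 on the log2 scale, beside -0.03 over all genes.

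The interaction tests whether the yki3SA change differs between discs with and without the sd mutation. It was called higher for 29 members and lower for 0, while over all genes 15% were higher and 13% lower, with a median over members of 2.13 on the log2 scale beside -0.09 over all genes. By role these were 3 of 4 RNA-binding, 7 of 10 synaptic, 5 of 5 cytoskeletal, 10 of 12 adhesion, 2 of 7 guidance and 2 of 2 peptide-processing members. The largest were 7B2 (3.95 ± 0.52), Ank2 (3.94 ± 0.41), jeb (3.66 ± 0.40), robo3 (3.56 ± 0.55) and futsch (3.51 ± 0.26), with edgeR adjusted p of 2.68e-09 (futsch) to 3.63e-05 (robo3). In the direct comparison of yki3SA sd- with yki3SA, which shares libraries with the tests above, 32 members rose and 1 fell, while over all genes 24.9% rose and 28.1% fell. Its median member change was 2.20, beside -0.08 over all genes.

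The levels of futsch show the 4 groups side by side. In run 1 it had 397, 401 and 389 CPM in yki3SA sd-, 214, 179 and 373 CPM in sd-, 15.7 to 25.6 CPM in yki3SA and 177 to 208 CPM in ctrl. In run 2 it had 80.8 and 70.7 CPM in yki3SA sd-, 94.3 and 73.2 CPM in sd-, 3.75 CPM in yki3SA and 58.4 and 49.1 CPM in ctrl. Of the 4 groups, yki3SA was the low one in both runs. Its changes were log2 -3.19 ± 0.19 for yki3SA against ctrl, 0.33 ± 0.19 for yki3SA sd- against sd- (edgeR adjusted p = 0.267) and 4.05 ± 0.20 for yki3SA sd- against yki3SA (edgeR adjusted p = 1.05e-12).

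Ank2 had the largest change of the direct comparison. In run 1 it had 299, 389.5 and 234 CPM in yki3SA sd-, 124, 116 and 264 CPM in sd-, 8.77 to 16.4 CPM in yki3SA and 98.8 to 121 CPM in ctrl. In run 2 it had 108 and 112 CPM in yki3SA sd-, 129.5 and 113 CPM in sd-, 1.94 CPM in yki3SA and 89.0 and 79.8 CPM in ctrl. Yki3SA libraries were again the low ones, and yki3SA sd- overlapped sd- in run 1 and lay below it in run 2. Ank2 changed by log2 4.59 ± 0.32 in yki3SA sd- against yki3SA (edgeR adjusted p = 1.94e-10) and by 0.48 ± 0.29 in yki3SA sd- against sd- (edgeR adjusted p = 0.289).

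Among the RNA-binding members, elav in run 1 had 578, 420.1 and 449.8 CPM in yki3SA sd-, 376, 396 and 465 CPM in sd-, 131 to 146 CPM in yki3SA and 366 to 422 CPM in ctrl. In run 2 it had 106 and 117 CPM in yki3SA sd-, 122 and 110.1 CPM in sd-, 24.0 CPM in yki3SA and 85.8 and 97.2 CPM in ctrl. Both sd-deficient groups overlapped each other in both runs, and the yki3SA libraries were below every other MARCM library of their run. The interaction was 1.62 ± 0.16 for elav (edgeR adjusted p = 9.37e-08), 1.90 ± 0.39 for Rbp9 (edgeR adjusted p = 0.000805) and 2.87 ± 0.35 for cpo (edgeR adjusted p = 1.52e-06). For fne it was 0.92 ± 0.95 and did not pass.

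The synaptic gene nSyb in run 1 had 73.0, 112 and 49.7 CPM in yki3SA sd-, 39.7, 40 and 77.4 CPM in sd-, 4.83 to 8.75 CPM in yki3SA and 32.4 to 44.2 CPM in ctrl. In run 2 it had 30.3 and 28.8 CPM in yki3SA sd-, 25.3 and 22.3 CPM in sd-, 0.783 CPM in yki3SA and 22.2 and 19.9 CPM in ctrl. The interaction was 3.26 ± 0.38 (edgeR adjusted p = 1.12e-06). The 3 synaptic members that rose in MARCM yki3SA, Snap25, Syx1A and unc-13, had interactions of -0.91 ± 0.41, -0.21 ± 0.15 and -0.12 ± 0.24, of which none passed. Snap25 in run 1 had 4.36, 2.49 and 3.21 CPM in yki3SA sd-, against 0.673, 1.22 and 2.28 CPM in sd-, without overlap, and its change there of 1.09 ± 0.31 did not pass after adjustment (edgeR adjusted p = 0.180).

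Of the guidance members, robo3 and fra had called interactions (3.56 ± 0.55 and 1.18 ± 0.22). In yki3SA sd- against yki3SA, robo3, fra, PlexA and PlexB rose (3.67 ± 0.44, 1.44 ± 0.16, 0.56 ± 0.15 and 0.60 ± 0.12). The member that fell in that comparison was Nrg (-0.47 ± 0.14, edgeR adjusted p = 0.00908), a call lost in run 1 alone (-0.43, edgeR adjusted p = 0.0568) and without yki3SA sd- replicate 2 (-0.28, edgeR adjusted p = 0.0766). Nrg had 730.1, 466.03 and 830.0 CPM in yki3SA sd- run 1, and 823 to 997 CPM in yki3SA.

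**Figure D4:**
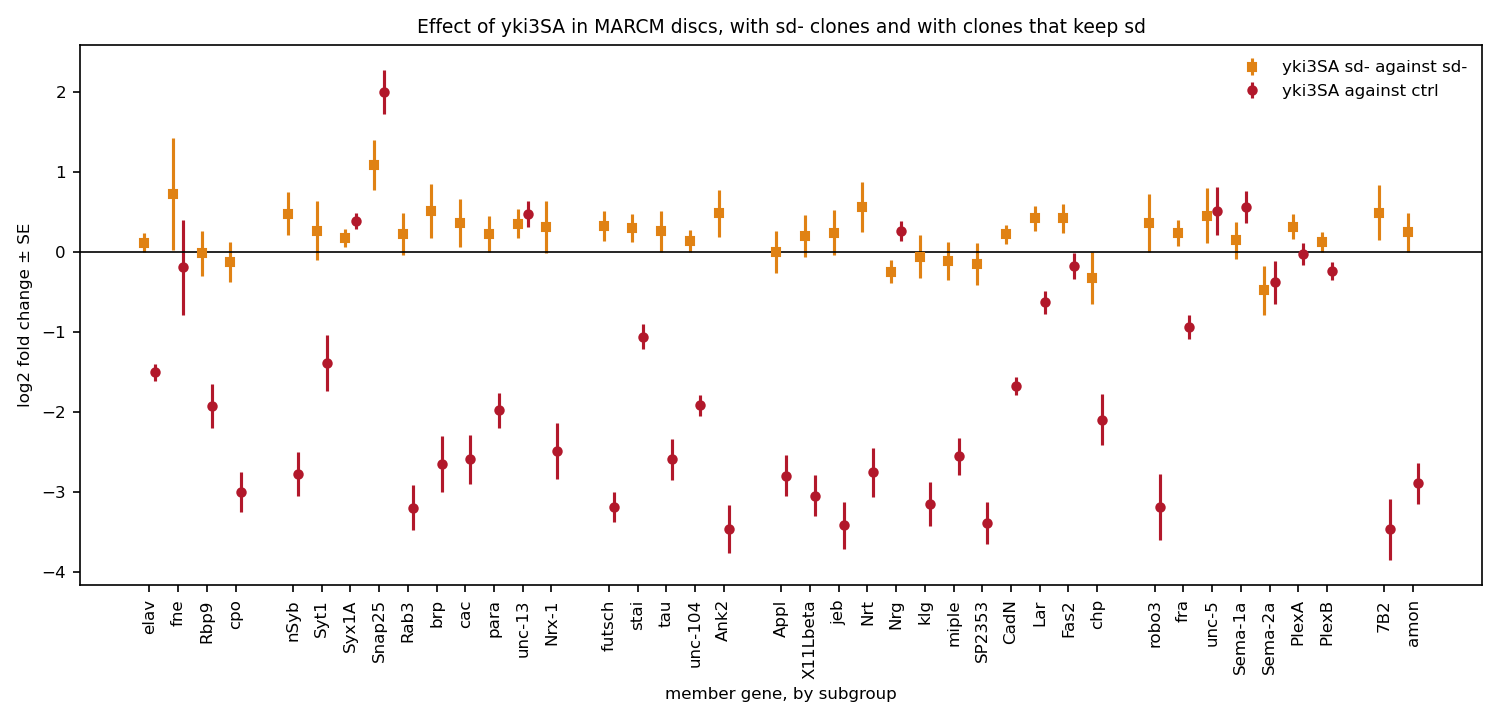
Log2 fold change of the 40 tested members for yki3SA sd- against sd- and for yki3SA against ctrl in the MARCM model, with standard errors. With sd lost the members lie around 0 (median 0.24), and without the mutation most lie below 0 (median -2.04).

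Some run 1 libraries stood apart within their groups. For futsch, Nrt, Ank2 and brp, sd- replicate 3 was higher than the other 2 sd- libraries (Nrt 781 against 345 and 309 CPM), and yki3SA sd- replicates 1 and 2 were higher than replicate 3 for Nrt (925 and 1364 against 524 CPM). Without sd- replicate 3 the members called were still 0 in sd- against ctrl, and the interaction was called for 33 instead of 29. Over all genes the interaction was then called for 2721 instead of 2494.

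Members differed widely between the libraries of sequencing runs 1 and 2, as the labels name them. Run 2 differed from run 1 in 32 of 40 tested members, 22 lower and 10 higher, from -2.88 (Syx1A) to 2.63 (unc-5) on the log2 scale, while 77.5% of all genes tested were called. Groups are therefore compared only within a run, or with run as a term. Each of the 29 members that fell in MARCM yki3SA also passed the threshold in run 1 alone, where 2266 of all genes were called in either direction. Run 1 holds 5 of the 6 yki3SA and 5 of the 7 ctrl libraries that gave the 29, so this is no separate check. How many of all genes that fell also passed in run 1 alone was not counted. Of the 29, 28 had a larger fall in run 2. How many of all genes changed more in run 2 was not counted. The median log2 change of the 29 was -2.41 in run 1 and -4.48 in run 2, where yki3SA is a single library assumed to vary like the other groups. The exception was stai (-1.20 in run 1 and -0.79 in run 2). The single yki3SA library of run 2 had the highest yki count of the series, 2082 CPM, and used another chromosome arm and driver.

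Within single runs the comparisons without calls gave some. In run 2 alone, sd- against ctrl gave 6 calls, with cpo (0.48), unc-13 (0.50), Nrx-1 (0.72), Ank2 (0.52) and Appl (0.70) higher and miple (-1.05) lower, between libraries that differed in arm and driver, while 423 of all genes were called there. In run 1 alone it gave 0. In yki3SA sd- against sd-, run 1 alone gave 7 calls, with Snap25 (1.32), unc-13 (0.71), Ank2 (0.88), Nrt (0.98) and Fas2 (0.73) higher and miple (-0.67) and chp (-1.05) lower, while 1429 of all genes were called there. Run 2 alone gave 2 calls there, miple (0.71) and Sema-1a (0.88), both higher, while 331 of all genes were called, so miple changed in opposite directions in the 2 runs.

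**Figure D5:**
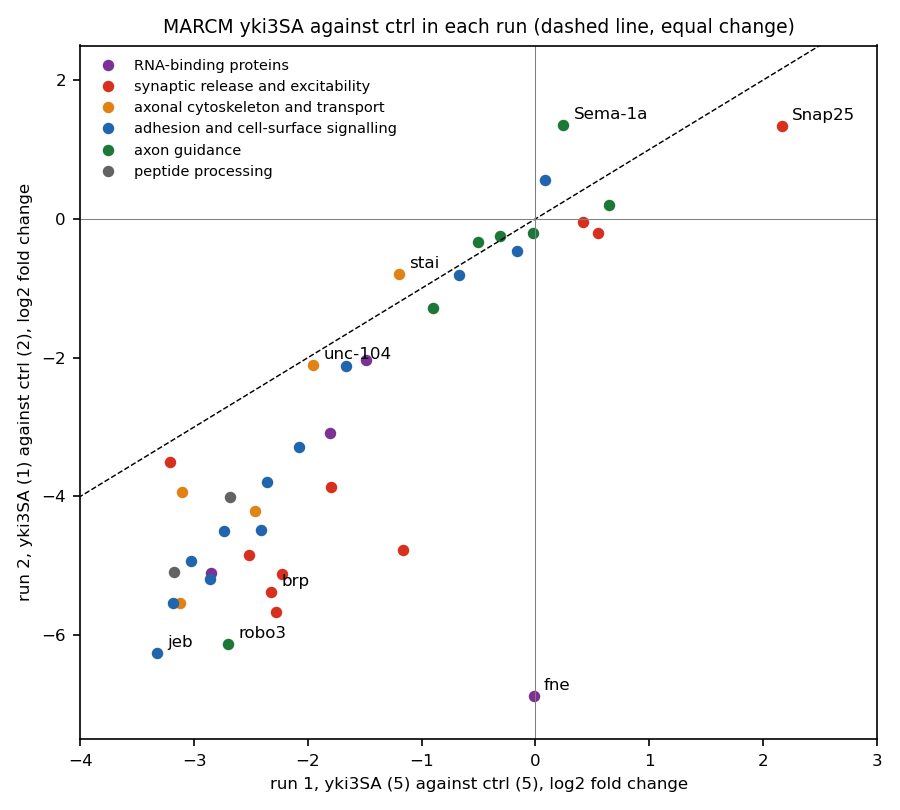
Log2 fold change of MARCM yki3SA against ctrl fitted in run 2 alone (vertical axis) and in run 1 alone (horizontal axis) for the tested members, with the diagonal of equal change. Of the 29 members that fell, 28 lie below the diagonal, with medians of -4.48 in run 2 and -2.41 in run 1. The lowest point plotted, fne, rests on 1 count in run 2.

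Other neuronal genes of the same roles were counted from separate lists, and their counts stand beside 13.5%, 10.5% and 17.1% of all genes that fell and 10.6%, 9.02% and 17.3% that rose in the eyFLP, optix and MARCM models. These lists, too, were chosen with earlier results of these data known. Of the other synaptic genes, 13 of 26 fell and 0 rose in eyFLP wts-, 13 of 26 fell and 0 rose in optix yki3SA, and 15 of 25 fell and 0 rose in MARCM yki3SA. They included Syt4, a synaptotagmin (-5.07, -1.01 in eyFLP and MARCM), nrv3, a neuronal sodium pump subunit (-4.46, -2.74), and cpx, the SNARE regulator complexin (-4.19, -2.63). In yki3SA sd- against yki3SA 18 of 25 rose and 1 fell, while over all genes 24.9% rose and 28.1% fell.

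Of 38 other axon guidance and neuronal adhesion genes 19, 15 and 18 fell and 4, 2 and 5 rose in the eyFLP, optix and MARCM models, with median changes of -0.53, -0.18 and -0.34 on the log2 scale. The immunoglobulin-domain genes Dscam2 and dpr9 fell in each of them (Dscam2 -5.004, -3.97 and -3.005, dpr9 -4.37, -3.16 and -2.81). Of 19 other RNA-binding genes 9, 4 and 8 fell and 2, 3 and 2 rose, so that only the eyFLP and MARCM falls were well above the shares over all genes. Their median changes were -0.28, -0.31 and -0.06, close to those of the other guidance and adhesion genes. The contrast between the RNA-binding and guidance members was thus not seen in these lists. Rbp6, an RNA-binding protein of the Musashi family, fell (-5.03, -2.91 and -2.88) and Imp, an mRNA-binding protein of immature neural cells, rose (1.65, 0.86 and 1.61). Of 14 other cytoskeletal genes 3, 4 and 3 fell and 2, 1 and 1 rose, counts near those shares in the eyFLP and MARCM models, the falls including the beta-tubulin gene betaTub60D (-2.88, -1.32 and -2.70). In sd- against ctrl and in yki3SA sd- against sd-, 0 genes of these lists were called by edgeR.

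Most tested photoreceptor and neuron precursor markers fell in each model of Yki activation, as most members did. Markers of other cells, given in the paragraphs that follow, did not all do so, and some rose. Counts of called markers, here and in the paragraphs that follow, stand beside the shares over all genes. In the eyFLP, optix and MARCM models 13.5%, 10.5% and 17.1% of all genes fell and 10.6%, 9.02% and 17.3% rose. In yki3SA sd- against yki3SA 24.9% rose and 28.1% fell. The summed level of 17 photoreceptor and neuron precursor markers was 303 to 306 CPM in eyFLP wts- and 1031 to 1169 CPM in eyFLP ctrl, and 316 to 347 CPM in optix yki3SA and 1052 to 1225 CPM in optix ctrl. In MARCM run 1 it was 173 to 248 CPM in yki3SA, 999 to 1249 in yki3SA sd-, 1052 to 1132 in sd- and 1035 to 1108 in ctrl. Most of the sum in eyFLP wts- and optix yki3SA was oc (means of 276 and 253 CPM, against 219 and 191 CPM in their controls). It rose in both of these models (log2 0.33 and 0.40) and fell in MARCM yki3SA (-1.10). Of the markers tested 12 of 13, 11 of 13 and 14 of 15 fell in the eyFLP, optix and MARCM models, and 1 rose in each. Among the defining ones, the photoreceptor factor gene gl averaged 4.98 CPM in eyFLP wts- and 118 CPM in eyFLP ctrl. Both boss and trp were at 0 in eyFLP wts-, against means of 2.25 and 0.0753 CPM in eyFLP ctrl, so trp was near the floor in both groups. In run 1 trp was also at 0 in optix yki3SA and in MARCM yki3SA, yki3SA sd- and sd-, so its 0 was not particular to discs with fallen members. Their part in the members' changes was not tested.

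Of central brain neurons, 12 markers summed to only 4.06 to 6.31 CPM in eyFLP wts- and 17.8 to 19.9 CPM in eyFLP ctrl, most of it Lim3 (0.454 and 14.7 CPM), with VGlut, Ilp2 and dimm at 0 in both. In optix discs the sum was 2.02 to 4.07 CPM in yki3SA and 22.9 to 43.0 CPM in ctrl. In MARCM run 1 it was 3.23 to 7.23 CPM in yki3SA, 25.8 to 69.0 in yki3SA sd- and 19.7 to 24.9 CPM in ctrl. Of 5, 5 and 6 tested, only 1, 1 and 2 fell and 1, 0 and 0 rose in the eyFLP, optix and MARCM models. Of 5 tested neuroblast markers, 3, 2 and 4 fell and 1 rose in the eyFLP, optix and MARCM models, and in yki3SA sd- against yki3SA 4 rose and 1 fell. Their sums were 34.8 to 35.1 CPM in eyFLP wts- and 29.5 to 33.2 CPM in eyFLP ctrl, and 13.8 to 20.9 CPM in MARCM yki3SA and 25.2 to 31.7 CPM in MARCM ctrl in run 1. Most of the eyFLP wts- sum was insc, at a mean of 28.9 CPM against 3.25 CPM in eyFLP ctrl. In MARCM run 1 insc had means of 13.3 CPM in yki3SA and 5.26 CPM in ctrl.

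Glial markers summed to 370.3 to 372 CPM in eyFLP wts- and 348 to 352 CPM in eyFLP ctrl, to 247 to 339 CPM in optix yki3SA and 283 to 328 CPM in optix ctrl, and to 321 to 365 CPM in MARCM yki3SA and 288 to 342 CPM in MARCM ctrl in run 1. In the eyFLP groups most of the sum was nrv2 and Gli. Their means were 178 and 84.1 CPM in eyFLP wts- and 114 and 128 CPM in eyFLP ctrl. For repo the means were 0.446 and 2.71 CPM. Single glial markers went both ways. In eyFLP wts- 2 of 7 tested fell and 2 rose, with the glial identity gene repo lower (-2.56) and moody higher (1.53). In optix yki3SA 1 of 7 fell and 2 rose, repo (1.69) and wrapper (1.78). In MARCM yki3SA 4 of 8 fell (repo -1.92, Gs2 -2.64, wrapper -1.44 and loco -0.83) and 2 rose.

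Hemocyte markers moved in the optix and MARCM models. They summed to 19.2 to 20.6 CPM in optix yki3SA and 28.4 to 66.7 CPM in optix ctrl, with 3 of 5 tested lower, while the 5 tested did not pass in eyFLP wts- (edgeR adjusted p = 0.0828 to 0.790). Their sums in MARCM run 1 were 4.74 to 10.5 CPM in yki3SA, 91.7 to 206 in yki3SA sd-, 28.1 to 63.4 in sd- and 34.0 to 48.4 in ctrl, with 5 of 6 lower in yki3SA against ctrl and 5 of 6 higher in yki3SA sd- against yki3SA. Peripodial markers summed to 38.6 to 51.9 CPM in eyFLP wts- and 19.0 to 20.7 CPM in eyFLP ctrl, with 3 of 3 tested higher; those tested in optix yki3SA and MARCM yki3SA did not pass (edgeR adjusted p = 0.137 to 0.794). In MARCM run 1, muscle and myoblast markers summed to 404 to 467 CPM in yki3SA and 694 to 797 in ctrl. They summed to 903 to 995 CPM in yki3SA sd- and 654 to 882 in sd-. Their sums were 453 to 497 CPM in eyFLP wts- and 629 to 764 in eyFLP ctrl. In optix discs they were 502 to 569 CPM in yki3SA and 766 to 928 in ctrl. Of 6 tested, 1, 1 and 2 fell and 1, 0 and 1 rose in the eyFLP, optix and MARCM models. Most of the MARCM difference was sls (means of 64.6 CPM in yki3SA and 354 in ctrl, run 1), while how had 310 and 335 and Mef2 49.7 and 38.1. The part of these lists in the members' values was not tested.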

How the data were processed

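RNA of eye-antennal discs was measured in 33 libraries of 8 groups. The values are counts per gene, as deposited by the authors in 3 tables of 16727 symbols. Per the labels' protocols, libraries were made with the QuantSeq 3' kit (forward). Per the submitters' processing notes, cutadapt, FastQC and STAR 2.6.1d with the dm6 build were used. How reads were assigned to genes (tool, strand, annotation) was not given in the sources used here. The values of 10 members with exons overlapping another gene on the same strand and of 7 on the opposite one are uncertain.

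Members and lists were chosen with earlier results of these data known. The eyFLP and optix groups were fitted with the run 1 MARCM yki3SA and ctrl libraries (20 libraries), and the 23 MARCM libraries together with run as a term, using edgeR 4.0.16 (R 4.3.3; filterByExpr, TMM, robust quasi-likelihood F test). P-values were adjusted over all genes tested. Standard errors, the fold change over the root of F, are approximate. Displayed CPM used TMM factors over all 33 libraries; each library held 6787 to 8995 genes with at least 10 counts. Counting intervals cover counting error only. Where a group had at most 3 counts, a ratio with its interval is given in place of a fitted change. The fits were tested on simulated data.

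Samples of MARCM yki3SA and ctrl with the same number deviated together in run 1 (correlations 0.155 to 0.477 over 5 numbers). The labels do not say why. The reported tests leave this pairing out, and the number was a block only in an alternative. With the block, all genes called went from 3070 to 2764 in MARCM yki3SA against ctrl. They went from 4731 to 3861 in yki3SA sd- against yki3SA and from 2494 to 2080 for the interaction. In other groups the numbers were not read as pairs. Values in each library are given for the member with the highest mean CPM over all libraries in each role, called members with the largest change, and called members against the direction of their role; elav, Appl, nSyb, PlexB, fra, Lar and the paired run values were added after their values were seen. The alternatives tried were other scaling (DESeq2-type, upper-quartile), filtering (none, or mean CPM of 10 or more), DESeq2 1.42.0, the replicate number as a block, each model or run alone, and leaving out each library.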

Additional observations from a re-analysis of the deposited data

Results flagged for a closer look

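In 81 tests of whether the highest or lowest library stands far from the rest of its group, 3 did, where chance gives about 1 in 20. Fas2 was at 1143 CPM in MARCM yki3SA run 1 replicate 1, against 893 to 941 CPM in the other libraries of that group. The synaptobrevin gene nSyb was at 32.4 CPM in MARCM ctrl run 1 replicate 4, against 41.9 to 44.2 CPM in the others. The adhesion gene klg was at 47.1 CPM in MARCM ctrl run 1 replicate 1, against 52.7 to 54.3 CPM in the others.

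The change in eyFLP wts- differed from the change in optix yki3SA by edgeR's test of the difference for 7 members. On the log2 scale the differences were fne -3.15, cpo -2.15, Appl -1.59, X11Lbeta -1.37, SP2353 -0.98, CadN -2.56 and miple 2.22.

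The change with yki3SA differed between MARCM discs with and without the sd mutation for 29 members by edgeR's interaction test, each positive. For the RNA-binding members the interactions were elav 1.62, Rbp9 1.90 and cpo 2.87 on the log2 scale. For the synaptic members they were nSyb 3.26, Syt1 1.66, Rab3 3.42, brp 3.16, cac 2.95, para 2.20 and Nrx-1 2.80. For the cytoskeletal members they were futsch 3.51, stai 1.36, tau 2.85, unc-104 2.05 and Ank2 3.94. For the adhesion members they were Appl 2.79, X11Lbeta 3.25, jeb 3.66, Nrt 3.31, klg 3.08, miple 2.44, SP2353 3.24, CadN 1.90, Lar 1.05 and chp 1.77. The guidance members robo3 and fra had 3.56 and 1.18, and the peptide-processing members 7B2 and amon 3.95 and 3.14.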

How the results depend on the processing

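Of 3206 alternative values for the 168 called results of members (and of lea), 3141 kept direction and call, 63 kept direction but lost the call and 2 reversed. The reversed ones were Syx1A (-0.041) and unc-13 (-0.20) in MARCM yki3SA against ctrl in run 2 only, an alternative added after seeing the data. The number of members called ranged over all alternatives from 23 to 34 in eyFLP wts-, 22 to 32 in optix yki3SA, 25 to 39 in MARCM yki3SA, 27 to 37 in yki3SA sd- against yki3SA and 25 to 35 for the interaction. With the replicate number as a block, 11 members instead of 7 differed between the eyFLP and optix models. Over all genes 786 instead of 712 did, and the numbers do not pair those samples. In MARCM the block ended no call of yki3SA against ctrl other than that of Sema-1a (0.54, edgeR adjusted p = 0.0772). In sd- against ctrl, run 2 only gave 6 calls. In yki3SA sd- against sd-, DESeq2 gave 1 call, run 1 only gave 7 and run 2 only gave 2. Over all genes, sd- against ctrl gave 9 calls, with 18 by DESeq2, 1 at a mean of 10 CPM, 2 with the block or with its run 2 ctrl numbers crossed (also added after seeing the data), 18 in run 1 only and 423 in run 2 only. In yki3SA sd- against sd- 12 became 161, 1, 4, 3, 1429 and 331 in that order, 6 without sd- replicate 4 and 31 without yki3SA sd- replicate 3. In MARCM yki3SA against ctrl 3070 became 5452 in run 2 only and 1876 at a mean of 10 CPM, and for the interaction 2494 became 4970 and 1545. In optix yki3SA 1699 became 554 with that model alone, 1132 at a mean of 10 CPM and 818 without yki3SA replicate 2, and in eyFLP wts- 2090 became 1391 at a mean of 10 CPM. The eyFLP and optix difference of 712 became 393 with those models alone and 453 and 436 without wts- replicate 1 and without wts- replicate 2. Fewer genes are tested at a mean of 10 CPM. The cause of the other shifts was not tested. Depth limits Rab3, robo3, amon and 7B2 most, with 1 to 4 counts in eyFLP wts-.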
